A study of Mus musculus with 8 samples.

Results

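The genes described here encode the enzymes that remove superoxide, hydrogen peroxide and electrophiles with the help of glutathione and thioredoxin, together with the regulators of their transcription. They were chosen by symbol: catalase, superoxide dismutases 1 to 3, the glutathione peroxidases, the peroxiredoxins, the thioredoxin reductases, the enzymes that make and reduce glutathione, the glutathione transferases, and *Nfe2l2*, *Keap1* and *Nqo1*. The rule found 48 of the 18194 genes that the array reads by at least 1 unshared probe set. They were measured in the hypothalamus of 4 *Nestin-Pex5*-/- mice and 4 wild type mice, all 10 weeks old and otherwise untreated, with 1 Affymetrix whole-genome mouse array per animal. In *Nestin-Pex5*-/- mice Cre is driven by the nestin promoter, which is active in neural precursors, so that *Pex5* is removed from neurons, astrocytes and oligodendrocytes but not from microglia, which come from another lineage. The colony was bred into a Swiss Webster background. The mice are called by the numbers of their labels, 7 to 10 for *Nestin-Pex5*-/- and 1 to 4 for wild type.

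PEX5 is the receptor that carries newly made enzymes into peroxisomes. Oxidases of the peroxisome produce hydrogen peroxide, which catalase splits in the same organelle, while glutathione peroxidases and peroxiredoxins reduce peroxides elsewhere in the cell at the expense of glutathione and thioredoxin. Superoxide dismutases turn superoxide into hydrogen peroxide, and glutathione transferases couple glutathione to reactive lipid products and foreign compounds. Many of these genes carry antioxidant response elements and are switched on by the transcription factor NRF2, which KEAP1 otherwise marks for degradation.

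All values are log2 signals after RMA, and fold changes are given as *Nestin-Pex5*-/- over wild type. A gene was called higher or lower where limma's p-value, after Benjamini-Hochberg adjustment across the 18194 genes, was under 0.05. Wild type mouse 4 stood apart from its group: it was the highest of the wild type arrays for 33 of the 48 genes (68.8%), against 52.2% of all genes. Its choroid plexus and ependyma markers averaged 7.65, against 8.87 to 9.22 in the other wild type mice and 8.31 to 8.81 in *Nestin-Pex5*-/- mice. Of these 8 markers 7 had a log2 fold change below 0. None was called, and 1 had an unadjusted p under 0.05 by limma. The oligodendrocyte markers of wild type mouse 4 averaged 11.66, against 10.96 to 11.20 in the other wild type mice. Among *Nestin-Pex5*-/- mice the 8 meningeal fibroblast markers averaged 8.11 and 8.38 in mice 7 and 8 and 9.16 and 9.13 in mice 9 and 10, against 8.80 to 9.32 in wild type mice. All 8 of these markers had a mean below that of wild type and none was called, with 1 at an unadjusted p under 0.05 by limma. The 2 probe sets of *Pex5* itself did not separate the genotypes. The brighter averaged 8.67 ± 0.071 in *Nestin-Pex5*-/- mice and 8.66 ± 0.038 in wild type mice (SD, n = 4 each). Whether they lie inside the deleted stretch could not be told, so they check no label. Markers of hypothalamic neurons such as *Avp*, *Oxt*, *Pmch* and *Hcrt* were present in both genotypes, and *Nkx2-1*, at 6.05 in *Nestin-Pex5*-/- and 6.36 in wild type mice, was lower and below the median level of the array.

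The RNA comes from whole tissue, in which fewer cells of a type and less RNA per cell cannot be told apart. Of 11 microglia and macrophage markers measured, 10 were higher in *Nestin-Pex5*-/- hypothalamus, and the mean log2 level of the list was 9.94 to 10.28 in *Nestin-Pex5*-/- mice and 7.87 to 8.09 in wild type mice. Of 10 astrocyte markers, *Gfap*, *Aqp4* and *Sox9* were higher, and the list averaged 11.54 to 11.65 in *Nestin-Pex5*-/- mice and 11.03 to 11.25 in wild type mice. *Gfap* and *Aqp4*, with log2 fold changes of 2.76 and 1.1, weighed most in that average. The median log2 fold change of the list was 0.14, with 8 markers above 0 and 2, *Slc1a3* and *Fgfr3*, below. Of 11 neuron markers, *Slc32a1* was lower, and the list averaged 11.95 to 12.01 in *Nestin-Pex5*-/- mice and 12.06 to 12.18 in wild type mice. *Gad1*, *Gad2* and *Slc32a1*, with log2 fold changes of -0.38, -0.38 and -0.53, weighed most in that average. The median of the list was -0.037, against -0.033 for all genes, with 2 markers above 0 and 9 below. None of the 9 oligodendrocyte markers was called by limma, although 7 had an unadjusted p under 0.05, and that list averaged 11.44 to 11.89 in *Nestin-Pex5*-/- mice and 10.96 to 11.66 in wild type mice. Of 7 endothelial markers 0 were called and 0 had an unadjusted p under 0.05. The part of these cell types in the values below was not tested.

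*Nfe2l2*, which encodes NRF2, and the glutathione peroxidase *Gpx1* were higher in *Nestin-Pex5*-/- hypothalamus, and the glutathione transferase *Gstk1* was lower. These were the calls among the 48 genes. The 2 higher genes are 4.17% of the list, and 3.98% of all genes were higher. The single lower gene is 2.08% of the list, and 0.791% of all genes were lower. An unadjusted p under 0.05 was reached by 8 of the 48 genes (16.7%) and by 16.9% of all genes, and the median log2 fold change was -0.025 for the list and -0.033 for all genes. The arrays of *Nestin-Pex5*-/- mice lay wholly above those of wild type for 2 of the 48 genes, against 6.63% of all genes, and wholly below for 4 (*Gstk1*, *Gstm5*, *Gsta4* and *Gclc*), against 4.51% of all genes. For 43 of the 48 genes the 95% interval of the fold change stayed within 1.5-fold either way, and for 18 it stayed within 1.2-fold.

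**Figure D1:**
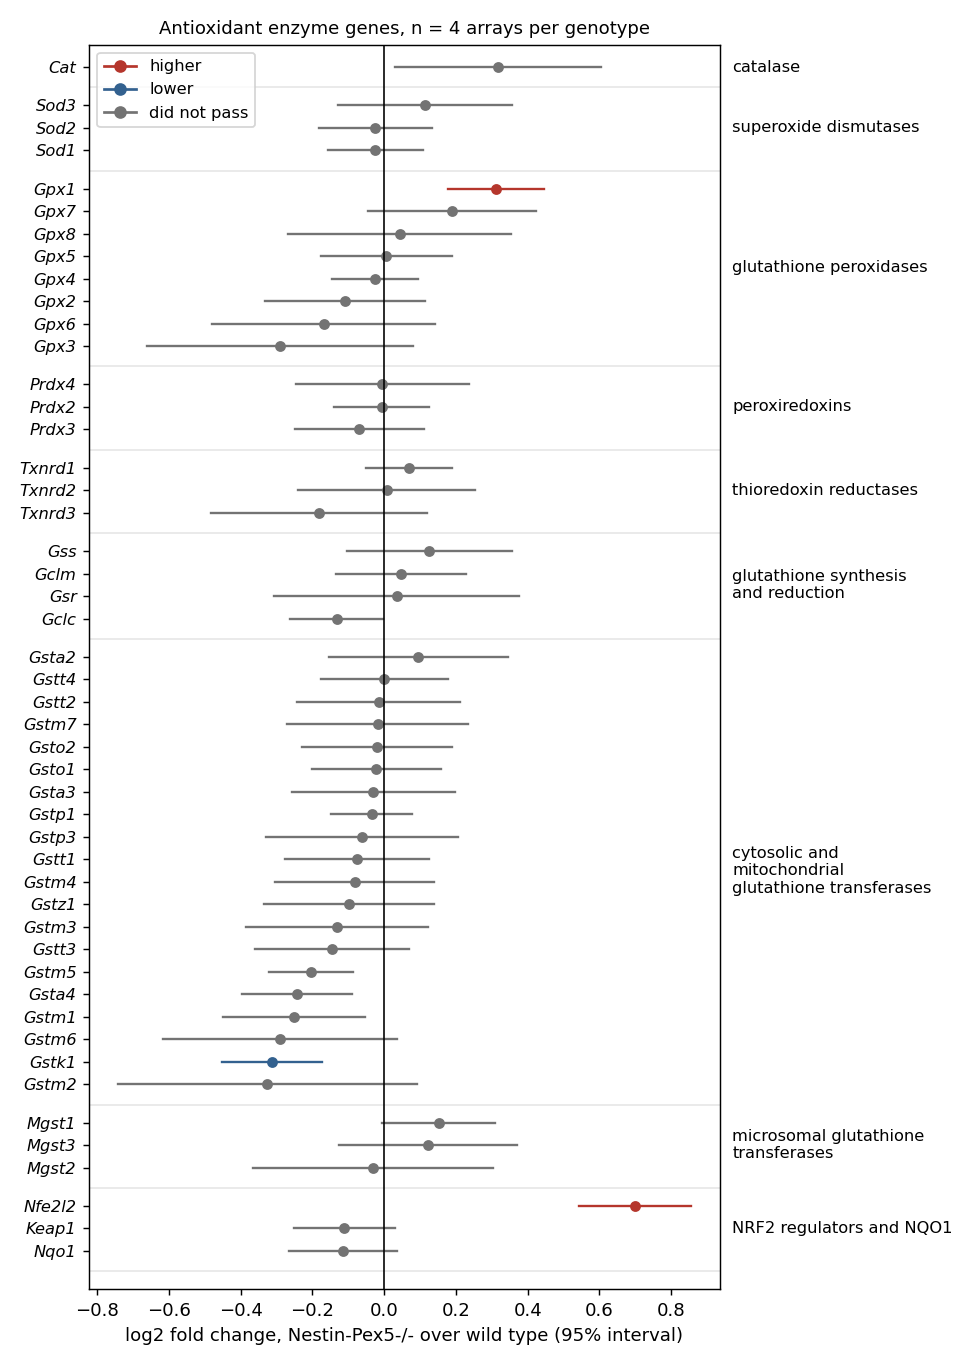
Log2 fold change of each of the 48 genes, *Nestin-Pex5*-/- over wild type, with its 95% interval from limma (n = 4 arrays per genotype), grouped by enzyme class. *Nfe2l2* at 0.70 and *Gpx1* at 0.31 are the genes called higher and *Gstk1* at -0.31 the gene called lower, while most glutathione transferases lie a little left of 0.

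Among the regulators, *Nfe2l2* had the clearest difference. Its level was 8.78, 8.92, 8.91 and 8.83 in *Nestin-Pex5*-/- mice 7, 8, 9 and 10, against 8.23, 8.09, 8.04 and 8.27 in wild type mice 1, 2, 3 and 4. The groups were separated by a gap wider than the range within either. The mean was 1.62-fold higher (log2 fold change 0.70, SE 0.069; adjusted p = 0.000249 by limma), and the exact two-sided permutation test gave p = 0.029, the smallest that 70 assignments allow. Leaving out any single array gave log2 fold changes of 0.66 to 0.74, all of them called. A dim second probe set, at 4.12 in *Nestin-Pex5*-/- and 4.04 in wild type mice, differed by 0.08.

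*Keap1*, the sensor protein that holds NRF2 back, was 9.19, 9.25, 9.14 and 9.09 in *Nestin-Pex5*-/- mice, against 9.31, 9.18, 9.25 and 9.37 in wild type mice. The arrays of the genotypes overlapped, and the log2 fold change of -0.11 (95% interval -0.25 to 0.03) was not called. *Nqo1*, a quinone reductase often used as a readout of NRF2 activity, was 6.80, 6.81, 6.69 and 6.68 in *Nestin-Pex5*-/- mice, against 6.88, 6.73, 6.97 and 6.85 in wild type mice. It was not called either, with a log2 fold change of -0.11 (95% interval -0.26 to 0.04). Its level was close to the median level of the array (6.80), and the activity of NRF2 was not tested.

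The antioxidant response element is the DNA motif that NRF2 binds. Its core, TGACNNNGC on either strand, was searched in the RefSeq promoter windows (build GRCm38.p6), which run from 250 bases before to 50 after an annotated transcript start. A gene can have several such windows, as 10 of the genes described here do, and was counted where any of them held the core. It was present in 8 of the 43 genes of the list with a window (18.6%) and in 14.0% of all 27025 genes with a window. Per window the shares were 8 of 57 (14.0%) and 12.4%. The sites in the promoters of *Nfe2l2* itself and of 4 enzymes from different classes are shown with 10 bases on each side, on the strand of the gene, with the core in capitals, because they carry the letters on which the grouping rests.
Nfe2l2, chr2:75704885-75704913, minus strand: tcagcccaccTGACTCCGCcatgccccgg
Gclm, chr3:122245413-122245441, plus strand: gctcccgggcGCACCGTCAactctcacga
Txnrd1, chr10:82859104-82859132, plus strand: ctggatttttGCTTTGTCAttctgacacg
Mgst1, chr6:138140461-138140489, plus strand: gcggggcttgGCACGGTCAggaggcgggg
Gstm5, chr3:107895802-107895830, plus strand: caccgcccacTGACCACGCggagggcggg
In *Nfe2l2* and *Gstm5* the core reads along the strand of the gene, and in *Gclm*, *Txnrd1* and *Mgst1* on the opposite strand. The site of *Txnrd1*, which has 3 windows, belongs to a start inside the gene and not to its first one. The same holds for the sites of *Gclm*, *Gsta3* and *Gstm7*. The other genes with a core were *Gsta3*, *Gstm7* and *Sod1*. The windows of *Gpx1*, *Gstk1*, *Cat* and *Nqo1* held none, and sequence outside the windows was not searched. A match to the core does not show that NRF2 binds there. The median log2 fold change was 0.01 over the 8 genes with a core and -0.03 over the 35 without. These medians therefore do not compare NRF2 targets with other genes.

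Both probe sets of catalase (*Cat*) were above wild type without being called. The brighter read 10.09, 10.10, 10.26 and 10.36 in *Nestin-Pex5*-/- mice, against 9.71, 9.69, 9.87 and 10.27 in wild type mice. Wild type mouse 4 lay among the *Nestin-Pex5*-/- mice, and the other 3 wild type mice lay below all of them. The mean was 1.25 times that of wild type (log2 fold change 0.32, 95% interval 0.03 to 0.60; adjusted p = 0.247 by limma, exact permutation p = 0.114), and the second probe set differed by 0.30. Without wild type mouse 4 the log2 fold change was 0.44 and was called (adjusted p = 0.0136 by limma), and with arrays weighted by their quality it was 0.48 (adjusted p = 0.00791). The weights were estimated from the same arrays. Both settings raised the calls over all genes, to 1080 and 1351 higher, against 724 in the main fit. Genes called lower rose to 331 and 699, against 144. Without any other single array it was 0.25 to 0.35 and was not called. The oligodendrocyte markers ran like *Cat*, at 11.44, 11.68, 11.89 and 11.82 in *Nestin-Pex5*-/- mice, against 11.20, 10.96, 11.00 and 11.66 in wild type mice, with wild type mouse 4 inside the *Nestin-Pex5*-/- range. Their part in the values of *Cat* was not tested.

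The glutathione peroxidases reduce hydrogen peroxide and lipid peroxides, and *Gpx1* encodes the ubiquitous cytosolic and mitochondrial form. It was 11.39, 11.46, 11.43 and 11.36 in *Nestin-Pex5*-/- mice, against 11.15, 11.00, 11.06 and 11.18 in wild type mice. No wild type array reached the lowest *Nestin-Pex5*-/- array. The rise was 1.24-fold (log2 fold change 0.31, SE 0.059; adjusted p = 0.0146 by limma, exact permutation p = 0.029). Leaving out knockout mouse 8 or 9 moved the adjusted p to 0.0535 and 0.0567, and scaling the arrays to *Actb* moved the log2 fold change to 0.18 and the adjusted p to 0.0937.

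The other 7 glutathione peroxidases were not called. *Gpx4*, which reduces lipid peroxides within membranes, was 12.37, 12.36, 12.38 and 12.34 in *Nestin-Pex5*-/- mice, against 12.44, 12.32, 12.35 and 12.45 in wild type mice. Its interval of -0.15 to 0.09 was narrow. *Gpx3*, the secreted form, varied most within the groups, between 10.54 and 11.22 in *Nestin-Pex5*-/- mice and between 10.76 and 11.28 in wild type mice. Its log2 fold change was -0.29 (95% interval -0.66 to 0.08). *Gpx7* and *Gpx8*, peroxidases of the endoplasmic reticulum, differed by 0.19 and 0.04, and *Gpx2*, *Gpx5* and *Gpx6*, all below the median level of the array (6.80), by -0.11, 0.01 and -0.17.

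**Figure D2:**
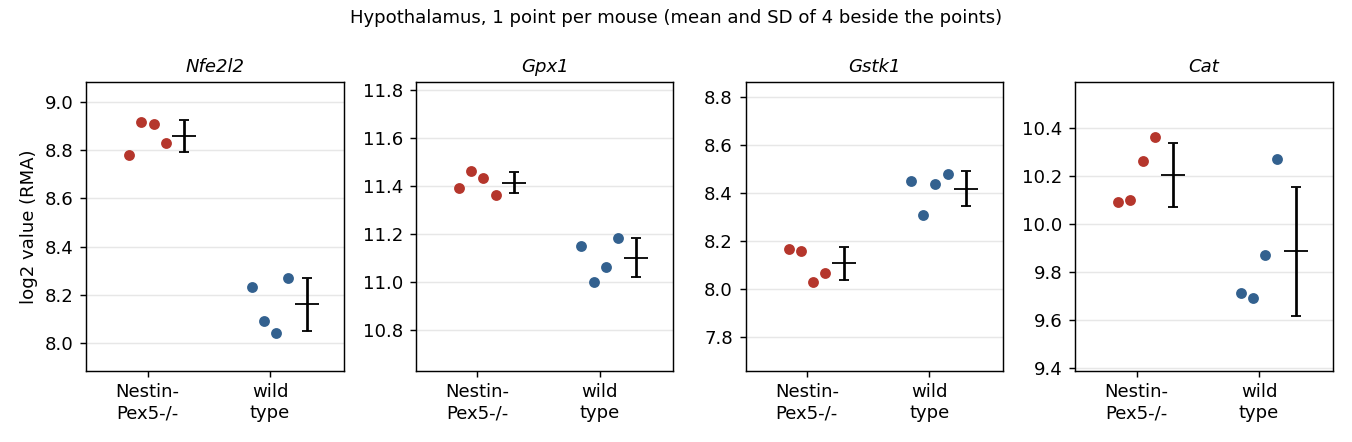
Log2 RMA values of *Nfe2l2*, *Gpx1*, *Gstk1* and *Cat* in each mouse, *Nestin-Pex5*-/- on the left and wild type on the right of each panel, with the mean and SD of 4 mice beside the points. The genotypes do not overlap for *Nfe2l2*, *Gpx1* and *Gstk1*. For *Cat*, wild type mouse 4 at 10.27 lies within the *Nestin-Pex5*-/- range of 10.09 to 10.36.

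The superoxide dismutases did not differ beyond the spread between mice. *Sod1*, the cytosolic copper and zinc enzyme, was 12.32, 12.32, 12.20 and 12.24 in *Nestin-Pex5*-/- mice, against 12.31, 12.21, 12.27 and 12.37 in wild type mice. *Sod2*, the mitochondrial manganese enzyme, was 10.62, 10.64, 10.65 and 10.54 in *Nestin-Pex5*-/- mice, against 10.67, 10.49, 10.61 and 10.78 in wild type mice. The *Nestin-Pex5*-/- values lay inside the wild type range for *Sod2*, and its interval of -0.18 to 0.13 corresponds to less than 1.2-fold either way. Its 4 probe sets ranged between -0.08 and -0.01. The extracellular *Sod3* had a log2 fold change of 0.11 (95% interval -0.13 to 0.36).

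Of the peroxiredoxins, which pass electrons from thioredoxin to peroxides, 3 had a probe set of their own and none was called. *Prdx2*, abundant in neurons, was 12.01, 12, 11.96 and 11.93 in *Nestin-Pex5*-/- mice, against 11.99, 11.89, 11.96 and 12.09 in wild type mice, a difference of -0.0070 (95% interval -0.14 to 0.13). The mitochondrial *Prdx3* differed by -0.07 and the endoplasmic *Prdx4* by -0.0049. *Prdx1* was read by 5 probe sets that it shares with the predicted gene *Gm21399*, so their signal cannot be given to either. All 5 lay above wild type by 0.11 to 0.16, none was called over all probe sets (adjusted p of 0.216 to 0.668 by limma), and they are not independent measurements. The one with the widest separation read 12.14, 12.16, 12.18 and 12.16 in *Nestin-Pex5*-/- mice, against 12.02, 11.97, 11.95 and 12.07 in wild type mice. On that probe set the genotypes did not overlap. On all the others they did, including the brightest, which averaged 12.49 in *Nestin-Pex5*-/- and 12.38 in wild type mice. *Prdx5* and *Prdx6* were not analysed here.

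The thioredoxin reductases keep thioredoxin reduced with electrons from NADPH. *Txnrd1*, the cytosolic form, was 10.30, 10.33, 10.34 and 10.25 in *Nestin-Pex5*-/- mice, against 10.18, 10.26, 10.21 and 10.30 in wild type mice. The groups overlapped, with a log2 fold change of 0.07 (95% interval -0.05 to 0.19). The mitochondrial *Txnrd2* differed by 0.0075 and *Txnrd3*, best known from testis, by -0.18, with no call.

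Glutathione is made in 2 steps, by glutamate-cysteine ligase with its catalytic (*Gclc*) and modifier (*Gclm*) subunits and by glutathione synthetase (*Gss*), and is reduced again by glutathione reductase (*Gsr*). *Gclc* was 9.68, 9.70, 9.68 and 9.62 in *Nestin-Pex5*-/- mice, against 9.90, 9.82, 9.78 and 9.71 in wild type mice. Its arrays did not overlap but the nearest lay 0.01 apart, and the log2 fold change of -0.13 was not called (adjusted p = 0.284 by limma). A second *Gclc* probe set of similar signal averaged 9.67 in *Nestin-Pex5*-/- and 9.74 in wild type mice. It differed by -0.07, and on it the arrays overlapped. *Gclm* and *Gsr* differed by 0.05 and 0.04, and *Gsr* had the wider interval of -0.31 to 0.38. *Gss* was 8.49, 8.52, 8.37 and 8.37 in *Nestin-Pex5*-/- mice, against 8.22, 8.21, 8.19 and 8.63 in wild type mice. Wild type mouse 4 was the highest of all 8 arrays and the other wild type mice were the lowest, so that the log2 fold change was 0.13 with it and 0.23 without it (adjusted p = 0.04995 by limma).

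Most glutathione transferases had values slightly below wild type, with a single call. Of the 20 soluble members, 19 had a log2 fold change below 0, against 61.7% of all genes, and their median was -0.08. Without wild type mouse 4 or knockout mouse 10, 14 of 20 remained below 0, against 55.2% and 60.2% of all genes. It was 16 of 20 without knockout mouse 8 or 9 or with quantile normalization again. Leaving out dim probe sets kept 12 of these genes, all below 0, against 55.4% of all genes kept. *Gstk1*, the kappa class enzyme found in mitochondria and peroxisomes, was the one called. It was 8.17, 8.16, 8.03 and 8.07 in *Nestin-Pex5*-/- mice, against 8.45, 8.31, 8.44 and 8.48 in wild type mice, without overlap. Its level was 0.805-fold that of wild type (log2 fold change -0.31, SE 0.062; adjusted p = 0.0175 by limma, exact permutation p = 0.029). The log2 fold change stayed between -0.35 and -0.29 when any single array was left out. The call was lost, by the adjusted p, without knockout mouse 9 (0.0688) or 10 (0.0656) and without wild type mouse 1 (0.0596) or 3 (0.0528).

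The 7 mu class genes, which lie together on chromosome 3, were all below 0 with a median of -0.20, and none was called. *Gstm5* was 11.79, 11.71, 11.69 and 11.66 in *Nestin-Pex5*-/- mice, against 11.89, 11.94, 11.90 and 11.94 in wild type mice. The groups did not overlap and the log2 fold change of -0.20 (95% interval -0.32 to -0.09) had an adjusted p of 0.0615 by limma. *Gstm1* was 10.97, 10.91, 10.72 and 10.78 in *Nestin-Pex5*-/- mice, against 11.15, 11.04, 11.27 and 10.92 in wild type mice. Its 4 probe sets gave -0.25 to -0.27, with wild type mouse 4 inside the *Nestin-Pex5*-/- range on the brightest (adjusted p = 0.177 by limma). The -0.33 of *Gstm2* came from knockout mice 7 and 8, at 5.46 and 5.24, while mice 9 and 10, at 6.15 and 6.04, lay within the wild type range of 5.96 to 6.18. The meningeal fibroblast markers divided the *Nestin-Pex5*-/- mice into the same pairs, as given above, and their part in the values of *Gstm2* was not tested. *Gstm6*, *Gstm3*, *Gstm4* and *Gstm7* differed by -0.29, -0.13, -0.08 and -0.02. The coding sequences of this class are alike and probe sets can read more than 1 of its genes, so the 7 values are not independent.

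Among the other classes, *Gsta4*, which conjugates the lipid peroxidation product 4-hydroxynonenal, was 10.11, 10.25, 10.13 and 10.04 in *Nestin-Pex5*-/- mice, against 10.45, 10.25, 10.38 and 10.41 in wild type mice. Knockout mouse 8 and wild type mouse 2 were equal to 2 decimals, with mouse 8 the lower, and the log2 fold change of -0.24 (95% interval -0.39 to -0.09) had an adjusted p of 0.0871 by limma. *Gstp1*, the pi class enzyme, was 12.79, 12.78, 12.76 and 12.70 in *Nestin-Pex5*-/- mice, against 12.83, 12.80, 12.75 and 12.79 in wild type mice. Its difference of -0.03 had an interval of -0.15 to 0.08. The 2 other alpha, 2 omega, 4 theta and 1 zeta class genes and *Gstp3* had log2 fold changes of -0.15 to 0.10, with *Gsta2* the one above 0.

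**Figure D3:**
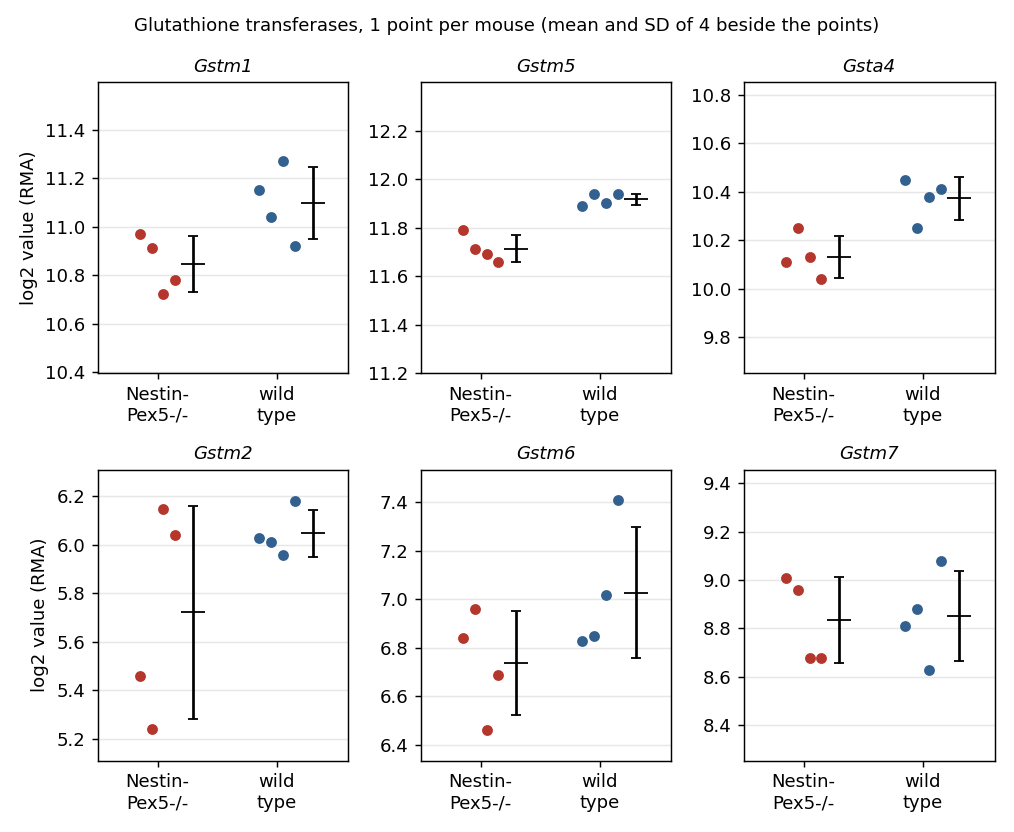
Log2 RMA values of 5 mu class glutathione transferases and *Gsta4* in each mouse, *Nestin-Pex5*-/- on the left and wild type on the right of each panel, with the mean and SD of 4 mice. *Gstm5* and *Gsta4* separate the genotypes, *Gstm1* and *Gstm6* overlap, *Gstm2* splits the *Nestin-Pex5*-/- mice into a low and a high pair, and *Gstm7* differs by -0.02.

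The microsomal glutathione transferases are membrane proteins that also reduce lipid peroxides. *Mgst3* was 10.93, 11.02, 10.78 and 10.81 in *Nestin-Pex5*-/- mice, against 10.75, 10.54, 10.68 and 11.08 in wild type mice, with wild type mouse 4 above all other arrays. The log2 fold change was 0.12 (95% interval -0.13 to 0.37). *Mgst1* differed by 0.15 on its bright probe set (95% interval -0.01 to 0.31) and by -0.28 on a dim one near the bottom of the scale, at 3.62 in *Nestin-Pex5*-/- and 3.90 in wild type mice, neither called. *Mgst2* differed by -0.03.

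**Figure D4:**
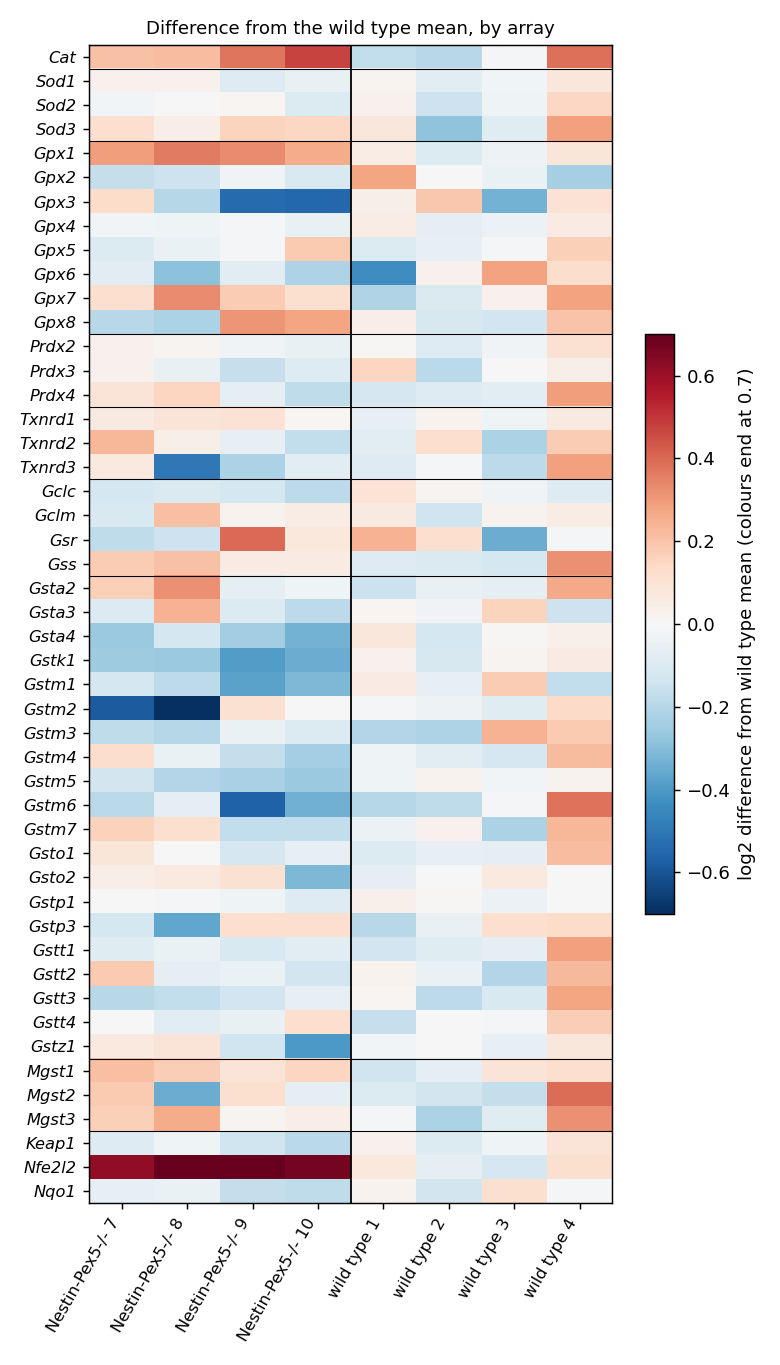
Difference of each array from the wild type mean for the 48 genes, *Nestin-Pex5*-/- mice in the left columns and wild type mice in the right ones, with horizontal lines between the enzyme classes. The *Nfe2l2* row is red in all 4 *Nestin-Pex5*-/- mice, and the column of wild type mouse 4 is red for most genes, in which it is the highest wild type array (33 of 48).

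Genes around these enzymes were taken from lists of the same pathways. Of 21 other NRF2 targets and enzymes that supply NADPH, which include the peroxidase *Gpx2* and *Txnrd1*, 4 were higher and none was lower. Of all genes 3.98% were higher and 0.791% lower. *Hmox1*, the haem oxygenase that NRF2 induces, was 7.11, 7.40, 7.48 and 7.60 in *Nestin-Pex5*-/- mice, against 6.40, 5.89, 5.87 and 6.43 in wild type mice, a 2.37-fold difference (adjusted p = 0.0011 by limma). No array of 1 genotype entered the range of the other. The aldo-keto reductase *Akr1b8* had a log2 fold change of 0.53 (adjusted p = 0.00307), the epoxide hydrolase *Ephx1* of 0.41 (adjusted p = 0.0212) and *Bach1*, a repressor that competes with NRF2 for its sites, of 0.31 (adjusted p = 0.0398). The calls of *Ephx1* and *Bach1* were lost when knockout mouse 8 or 9 or wild type mouse 2 or 3 was left out, with adjusted p up to 0.0729 for *Ephx1* and 0.121 for *Bach1*, and that of *Bach1* also without knockout mouse 10. The median of the list was 0.09.

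None of the 21 thioredoxin, glutaredoxin and sulfiredoxin genes was called by limma, and 2 had an unadjusted p under 0.05. *Txnip*, which binds and blocks thioredoxin, differed by 0.32 (adjusted p = 0.139), and *Txn1* and *Srxn1*, an NRF2 target that repairs overoxidised peroxiredoxins, by 0.03 each. Of 17 genes for glutathione precursors, breakdown and transport, the aminopeptidase *Lap3* was higher by 0.40 (adjusted p = 0.0167) and *Cbs*, which feeds homocysteine into cysteine synthesis, was lower by log2 fold change -0.39 (adjusted p = 0.0162). Without knockout mouse 8 or 9 or wild type mouse 1 or 2 the adjusted p of *Lap3* was 0.0501 to 0.0633, and without wild type mouse 1 or 3 that of *Cbs* was 0.0534 and 0.0506. The cystine carrier subunit *Slc7a11* differed by 0.14 and was not called.

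On the side of production, 5 of 13 genes for NADPH oxidase, nitric oxide synthases and xanthine oxidase were higher and 1 was lower. The shares of all genes were 3.98% and 0.791%. *Cybb*, the catalytic subunit of the phagocyte NADPH oxidase, was 7.40, 7.12, 7.46 and 7.15 in *Nestin-Pex5*-/- mice, against 5.22, 5.11, 4.93 and 5.30 in wild type mice, a 4.42-fold difference. Its partners *Ncf4*, *Cyba*, *Rac2* and *Ncf1* were 3.97-, 3.30-, 3.20- and 2.72-fold higher. Arrays of *Nestin-Pex5*-/- mice lay wholly above wild type for 6.63% of all genes. These 5 genes, given here because they were called, did not overlap between the genotypes. They are genes of phagocytes, and the microglia and macrophage markers moved with them as given above. *Nos1*, the neuronal nitric oxide synthase, was lower by log2 fold change -0.38 (adjusted p = 0.0158 by limma). That call was lost without knockout mouse 9 or 10 or wild type mouse 1 or 2 (adjusted p of 0.0539 to 0.0604) and when its probe sets were averaged (-0.22, adjusted p = 0.129). None of the 8 measured peroxisomal oxidases that release hydrogen peroxide was called by limma, with log2 fold changes of -0.34 to 0.31 and 3 genes at an unadjusted p under 0.05.

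**Figure D5:**
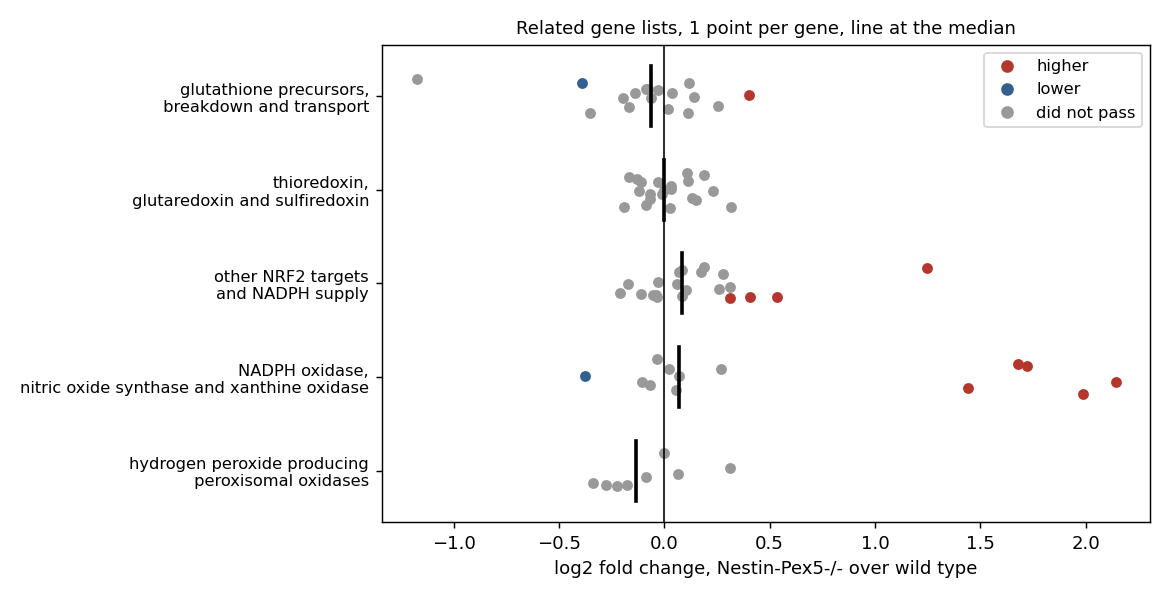
Log2 fold change, *Nestin-Pex5*-/- over wild type, of the genes of 5 related lists (n = 4 mice each). Each point is a gene and the black line marks the median of its list. *Hmox1* at 1.25 stands apart among the NRF2 targets, and *Cybb*, *Ncf4*, *Cyba*, *Rac2* and *Ncf1* lie between 1.44 and 2.14. The point at -1.18 is *Chac2*, which has 1 knockout array far below the others.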

How the data were processed

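RNA of the hypothalamus of 8 mice was hybridised to 1 array each. The authors deposited log2 values from RMA (named without a version in the submitters' processing notes), a method that corrects background, aligns the arrays by quantile normalization and joins the probes of each set into a single value. Software, probe set definition and filters are not given in the sources used here. The distributions of the deposited arrays were close but not equal: the median was 6.70 in wild type mouse 4 and 6.79 to 6.84 in the other 7 arrays, and sorted values differed from their mean by up to 0.12 on the log2 scale, as much as many of the differences reported. Normalization of this kind can hide a shift of most genes, and dim probe sets hold an unknown share of background. Precision is limited by the number of arrays, and the SE of the 48 genes ran between 0.05 and 0.19, with a median of 0.10.

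Of 45101 probe sets, 34958 were paired with 1 gene by the platform's annotation, 932 with several and 9211 with none. Of the 34958, 34754 took their symbol from the RefSeq annotation by gene identifier, whether or not it differed from the platform's. Where a gene had several, the one of highest mean signal stood for it. Of 54 protein-coding genes of the RefSeq annotation that match the rule, 6 (*Gsta1*, *Gstp2*, *Prdx1*, *Prdx5*, *Prdx6* and *Prdx6b*) have no probe set of their own here. The 48 genes had 84 probe sets, 23 genes had several, and 12 genes lay below the median level of all probe sets.

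The test was limma 3.58.1 under R 4.3.3 (a linear model of genotype alone, eBayes, two-sided, Benjamini-Hochberg over 18194 genes), and single genes were also put to an exact two-sided permutation of the means. Probe sets were fitted likewise over all probe sets. The fit was tested on simulated data. Text values follow a rule: values of every array for called genes, for *Cat*, *Sod2* and *Gpx1*, and for the member with the highest signal in each class. Of the shared *Prdx1* probe sets, the one of widest separation is given by array, picked after its values were seen. Members with an adjusted p near the threshold, with disagreeing arrays or probe sets, and *Nqo1*, were added after their values were seen. From related lists all called genes are given, at most 4 a direction and list with *Ncf1* added. The members and lists were chosen with earlier results of these data known. Alternatives were a filter on dim probe sets, the mean of a gene's probe sets, leaving out _s_at, _x_at and _a_at probe sets, scaling to *Actb* or to 8 reference genes, quantile normalization again, trend and robust eBayes, array weights, a threshold of 0.01, and leaving out each array. Figures were drawn with matplotlib 3.10.9.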

Additional observations from a re-analysis of the deposited data

Results flagged for a closer look

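In 5 of 96 groups of 4 arrays, 1 array lay far from the other 3 by Dixon's criterion, and chance marks about 1 in 20 such groups. *Gsto2*, an omega class glutathione transferase of low signal, was 4.95 in knockout mouse 10 and 5.31 to 5.37 in the other *Nestin-Pex5*-/- mice. The other 4 concern wild type mouse 4, each time on the high side. *Prdx4* was 9.68 there and 9.27 to 9.31 in the other wild type mice. *Gss* was 8.63 there and 8.19 to 8.22 in the others. *Gsto1* was 10.19 there and 9.88 to 9.92 in the others, and *Mgst2* was 5.72 there and 5.16 to 5.23 in the others.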

How the results depend on the processing

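No paired analysis was possible because the genotypes share no replicate number. The number of genes called higher was 2, and 1 when arrays were scaled to *Actb* or the threshold was 0.01, and 3, with *Cat*, with array weights. It ranged between 1 and 4 when 1 array was left out, with 1 without knockout mouse 8 or 9 and 4 without wild type mouse 4. Over all genes the number called higher was 724, and 540 scaled to *Actb*, 467 at 0.01 and 1351 with array weights. It was 556 and 543 without knockout mouse 8 or 9, and 1080 without wild type mouse 4. The number of the 48 genes called lower was 1. It was 2 without dim probe sets or with quantile normalization again, 3 with trend and robust settings, 4 with array weights, 5 scaled to *Actb*, 6 scaled to reference genes and 0 at 0.01, and it ranged between 0 and 1 when 1 array was left out. Over all genes the number called lower was 144, and 20 at 0.01. It was 144 of 11213 genes without dim probe sets, 167 with quantile normalization again and 180 with trend and robust settings. It was 699 with array weights, 1088 scaled to *Actb* and 1612 scaled to reference genes. Genes of the list added as lower under such settings were *Gstm5* in all 6, *Gsta4* in 4, *Gstm1* in 3, *Gclc* in 2 and *Keap1* in 1, and the cause was not tested. Scaling to *Actb* and to reference genes moved the median log2 fold change of all genes to -0.16 and -0.14, against -0.03. The share of calls that were higher was then 33.2% and 27.7%, against 83.4%. Of 748 alternative values of the 48 genes, 74 in 25 genes changed sign, 7 lost and 19 gained a call, and *Nfe2l2* was called in all. None of the 74 was of a called gene. Of the 12 called related genes, *Bach1*, *Ephx1* and *Lap3* lost their call scaled to *Actb* (0.18, 0.28 and 0.27), and *Bach1* also scaled to reference genes (0.20) and averaged over probe sets (0.21). Scaled to *Actb*, log2 fold changes became -0.12 for *Gpx5*, -0.12 for *Txnrd2*, -0.092 for *Gsr*, -0.083 for *Gpx8*, -0.081 for *Gclm*, -0.059 for *Txnrd1*, -0.032 for *Gsta2*, -0.013 for *Sod3*, -0.0051 for *Mgst3* and -0.0014 for *Gss*. Scaled to reference genes they became -0.10 for *Gpx5*, -0.10 for *Txnrd2*, -0.071 for *Gsr*, -0.063 for *Gpx8*, -0.060 for *Gclm*, -0.038 for *Txnrd1* and -0.011 for *Gsta2*. With array weights they became -0.031 for *Txnrd2*, 0.0084 for *Prdx2*, 0.011 for *Sod2*, 0.013 for *Prdx4*, 0.059 for *Gstt4*, 0.085 for *Gstp3* and 0.091 for *Mgst2*. Quantile normalization gave -0.012 for *Txnrd2*, 0.0079 for *Gsto2*, 0.018 for *Gsta3* and 0.043 for *Gstt4*. Averaged probe sets gave -0.064 for *Mgst1* and 0.045 for *Prdx4*. Leaving out _s_at, _x_at and _a_at probe sets gave -0.28 for *Mgst1* and 0.015 for *Gsto1*. That setting removed the bright probe set of *Mgst1*. Its -0.28 is the value of the dim one, at 3.62 in *Nestin-Pex5*-/- and 3.90 in wild type mice. Leaving out 1 array, signs changed within -0.050 to 0.0013 for *Sod1*, -0.074 to 0.024 for *Sod2*, -0.054 to 0.062 for *Gpx5*, -0.043 to 0.13 for *Gpx8*, -0.037 to 0.030 for *Prdx2*, -0.056 to 0.09 for *Prdx4*, -0.067 to 0.067 for *Txnrd2*, -0.0096 to 0.10 for *Gclm*, -0.084 to 0.12 for *Gsr*, -0.12 to 0.021 for *Gsta3*, -0.092 to 0.058 for *Gstm7*, -0.057 to 0.049 for *Gsto1*, -0.063 to 0.077 for *Gsto2*, -0.12 to 0.038 for *Gstp3*, -0.12 to 0.019 for *Gstt1*, -0.083 to 0.059 for *Gstt2*, -0.053 to 0.055 for *Gstt4*, -0.16 to 0.0049 for *Gstz1* and -0.10 to 0.10 for *Mgst2*.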

Other observations

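Both genes here were picked from the related lists after their values were seen. *Glo1*, the glyoxalase that uses glutathione to clear methylglyoxal, fell into separate levels that crossed the genotypes. Its brightest probe set was 12.06 in knockout mouse 8, against 11.24, 11.08 and 11.00 in knockout mice 7, 9 and 10, and 11.84 and 12 in wild type mice 3 and 4, against 11.12 and 11.09 in wild type mice 1 and 2. The same 3 mice were the highest on each of its 4 probe sets. The log2 fold change between the genotypes was -0.17 (adjusted p = 0.801 by limma). *Chac2*, a glutathione-degrading enzyme, was 3.16 in knockout mouse 10, near the bottom of the scale, against 8.83, 7.90 and 7.82 in knockout mice 7, 8 and 9, and 7.78, 7.86, 8.77 and 8.0 in the wild type mice. It has 1 probe set here, and that array alone sets its log2 fold change of -1.18 (adjusted p = 0.612).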
